A study of Homo sapiens with 7 samples.

Results

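Genes for chromatin modifiers and remodellers were taken by name from the regions of accessible chromatin that the authors listed as changed after PHF19 knockdown in Kasumi-1 cells. Symbols starting with KDM, KMT, KAT, HDAC, SIRT, SETD, NSD, SMARC, ARID, CHD, BRD, DNMT, ASXL or PHF, and TET1 to TET3, were kept, and KDM2B and PHF19 were left out. The rule found 100 regions of 8815 listed, with 69 gene symbols as the nearest gene. Of these symbols, 67 are protein-coding genes, and the others are the noncoding transcripts KDM7A-DT and KMT2E-AS1.

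Kasumi-1 is a long-established line from an acute myeloid leukaemia with the RUNX1-RUNX1T1 fusion. ATAC-seq, which uses a transposase to cut and tag open DNA, was run on 4 libraries of cells with a scrambled control shRNA and on 3 of cells with an shRNA against PHF19. Both groups received a lentiviral vector and puromycin at 2 µg/ml from 48 hours after the shRNA for no less than 24 hours, and 10000 cells went into each library. The labels call the treatment of the controls WT and do not say that libraries stem from separate cultures, so the authors' FDR may reflect technical spread only. PHF19 is an accessory subunit of Polycomb repressive complex 2 (PRC2), which methylates lysine 27 of histone H3, and accessibility does not measure how far its RNA or protein was reduced.

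Chromatin modifiers add or remove methyl and acetyl groups on histone tails or DNA, and remodellers use ATP to move or evict nucleosomes. Many of them work as subunits of large complexes, such as the SWI/SNF (BAF and PBAF), NuRD and COMPASS complexes, some of which act against Polycomb at the same genes. Several, among them TET2, ASXL1, KMT2A, KMT2C and PHF6, are recurrently mutated or rearranged in acute leukaemias.

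All mean read counts, log2 folds and false discovery rates (FDR) of single regions below come from the authors' deposited table, in which a fold is knockdown over control and an increased region has an FDR of at most 0.05. The log2 fold is the authors' own estimate and not the ratio of the reads printed beside it: in all 100 regions that ratio is larger, and the order of the regions differs, so every largest or smallest log2 fold below holds for the authors' estimate. The table holds the mean normalised read count of each group and no value per library, so no spread, n or replicate check accompanies a region, and the depth of the libraries is unknown. In cells measured in bulk, more cells with an open region and a more open region in each cell cannot be told apart. A region counts as a promoter region when the deposited annotation puts it within 3 kb of a transcription start, and otherwise carries the name of the gene with the nearest start, which need not be the gene it acts on. Coordinates of regions are as deposited and read as hg19.

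All 100 regions were increased in the knockdown and 0 were decreased. Among all listed regions, 8615 were increased and 200 decreased. These were 16.4% and 0.38% of the 52675 regions tested, a number recovered from the p-values and FDR, so an increase was also the direction of 97.7% of the whole list. Of the 139 protein-coding genes in RefSeq whose names match the rule, 67 (48.2%) had an increased region, beside 25.2% of all 20052 protein-coding genes. At the promoter the counts were 56 of 139 (40.3%) beside 17.5%, and 11 genes had an increased region outside their promoter only. None had a decreased region, beside 0.818% of all protein-coding genes, and 72 had no listed region. A gene without a listed region may have an accessible region that missed the threshold or none at all, so its absence from the list does not show that it did not change. The role groups below follow the start of the symbol alone, and a matching name does not show that a protein acts on chromatin. CHD9NB is thus counted with CHD, BRD3OS with BRD and the readthrough gene SETDB2-PHF11 with the methyltransferases, none of them with a listed region. The function of genes with a listed region was not checked either.

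**Figure D1:**
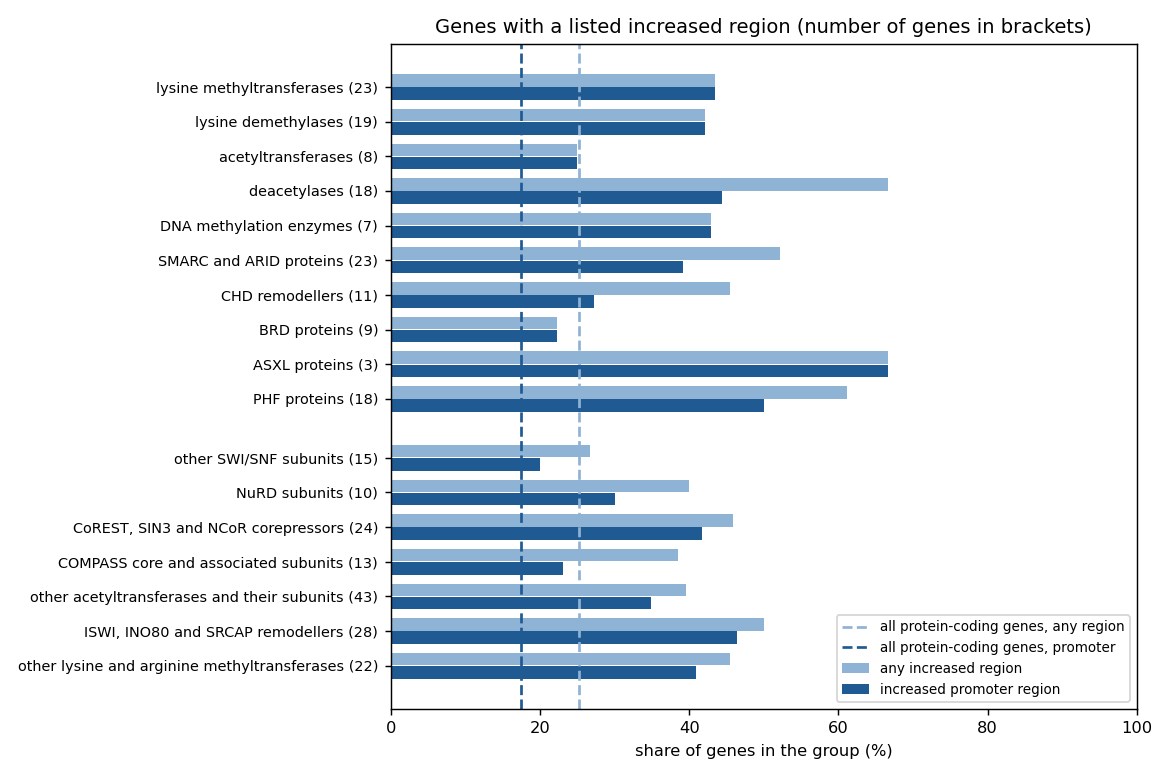
Share of protein-coding genes with at least 1 increased region (light bars) or increased promoter region (dark bars), in percent, for each role group and each list of partner genes, with the number of genes in brackets. Dashed lines mark 25.2% and 17.5% for all protein-coding genes, and the bars of acetyltransferases and BRD proteins end nearest to them among the role groups.

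The base composition of promoters differed along with these counts. Of the regulators, 115 have a promoter window in the RefSeq table, which runs from 250 bases before the start to 50 after. Where a gene has several windows, the most upstream was counted, which need not lie at the increased region. In windows with 20 or more CpG dinucleotides, a limit set after the values were seen, 44 of 90 regulators (48.9%) had an increased promoter region, beside 25.9% of 8811 protein-coding genes. In windows with fewer, it was 5 of 25 (20%) beside 10.2% of 7031. The share was therefore higher in CpG-rich windows in both sets, and higher in the regulators in both classes of window. No test of this difference was made, since the genes were chosen by name with earlier results known.

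The increases at the regulators were moderate in size. In the authors' deposited table the median log2 fold of the 100 regions was 0.91, with quartiles of 0.82 and 1.06 and a range from 0.59 to 1.53. Over all 8615 increased regions the median was 0.97, the quartiles were 0.84 and 1.12, and the maximum was 2.25. The regions of the regulators were nearer to starts than the list as a whole: 66% were promoter regions (exact Clopper-Pearson 95% interval 55.8% to 75.2%, counting error only), beside 50.1%, and 47% covered a start, beside 34.6%. The interval takes regions as independent draws, which they are not, since genes were chosen by name and some hold several regions. Among promoter regions alone the medians were 0.88 for the regulators and 0.89 for all genes, and outside promoters 0.96 and 1.02. Promoter regions had more reads than the others, with a median of 44.2 in the knockdown and 21.2 in the control, against 16.2 and 6.61 for the 34 regions elsewhere.

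**Figure D2:**
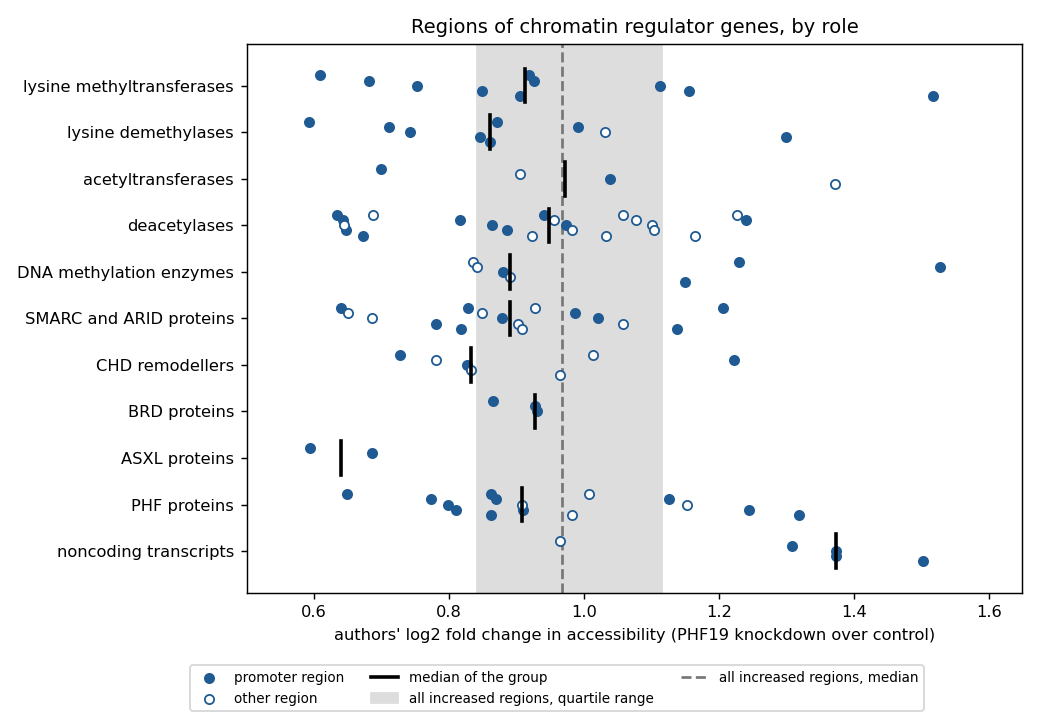
The authors' log2 fold of each of the 100 regions (horizontal axis), by role group, with filled points for promoter regions and open points for others. The grey band and dashed line give the quartiles and the median, 0.97, of all increased regions, and 3 points lie above 1.5.

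**Figure D3:**
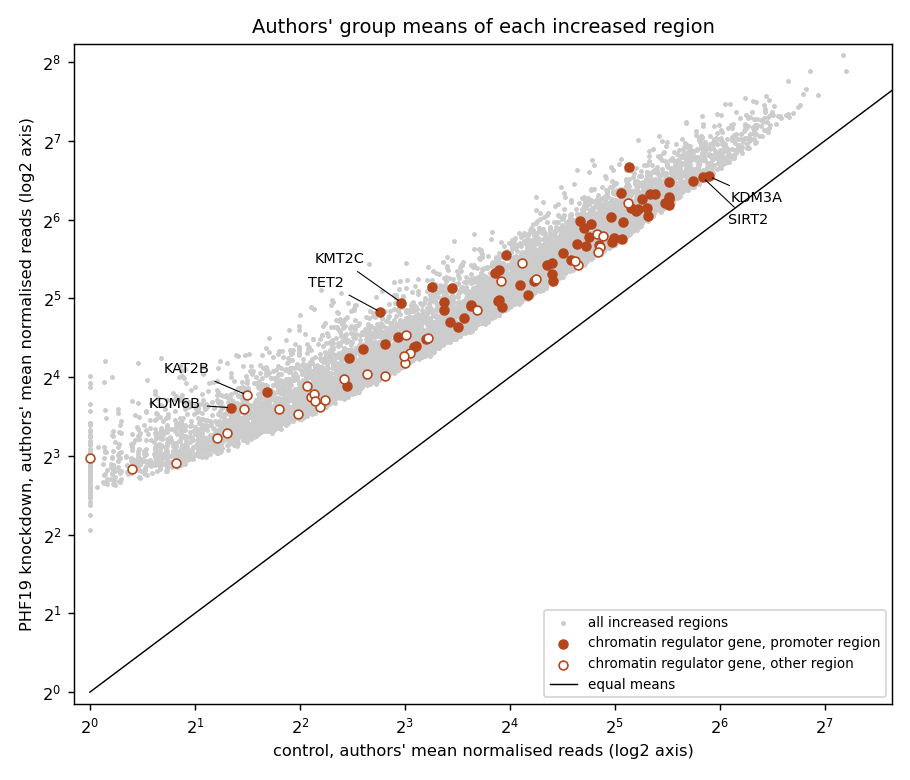
Mean normalised reads of the knockdown against the control group for each region, both on log2 axes, from the authors' deposited table, with grey points for all increased regions. Every region of the chromatin regulators lies above the line of equal means, as the increased list requires, and TET2 and KMT2C lie near the upper edge of the grey points.

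Promoter sequences are shown for 5 genes, because their region covers the start and they stand for 5 different roles: KMT2C for histone methylation, KMT2E-AS1 for noncoding transcripts, SMARCAD1 for ATP-dependent remodelling, BRD9 for bromodomain proteins and PHF13 for PHD finger proteins. Each is a RefSeq window on GRCh38.p14 and, where a gene has several, the one that the increased region covers most. It is written 5′ to 3′ along the gene, and capitals mark the motifs found on either strand, which can overlap. The windows are KMT2C at chr7:152435954-152436253 (minus strand), KMT2E-AS1 at chr7:105014092-105014391 (minus), SMARCAD1 at chr4:94207615-94207914 (plus), BRD9 at chr5:892752-893051 (minus) and PHF13 at chr1:6613481-6613780 (plus).
KMT2C: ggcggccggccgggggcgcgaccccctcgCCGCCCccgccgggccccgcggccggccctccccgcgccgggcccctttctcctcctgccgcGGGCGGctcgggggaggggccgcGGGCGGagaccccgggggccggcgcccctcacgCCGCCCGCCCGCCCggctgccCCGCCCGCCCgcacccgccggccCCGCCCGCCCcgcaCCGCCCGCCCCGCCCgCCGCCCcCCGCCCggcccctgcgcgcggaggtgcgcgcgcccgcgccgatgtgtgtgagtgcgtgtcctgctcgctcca
KMT2E-AS1: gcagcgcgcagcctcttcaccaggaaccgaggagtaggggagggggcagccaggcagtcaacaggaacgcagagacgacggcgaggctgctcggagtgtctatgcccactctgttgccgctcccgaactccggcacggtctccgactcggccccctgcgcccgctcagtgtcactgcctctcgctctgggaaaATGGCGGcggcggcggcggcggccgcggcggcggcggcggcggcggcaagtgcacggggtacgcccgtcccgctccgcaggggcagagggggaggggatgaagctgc
SMARCAD1: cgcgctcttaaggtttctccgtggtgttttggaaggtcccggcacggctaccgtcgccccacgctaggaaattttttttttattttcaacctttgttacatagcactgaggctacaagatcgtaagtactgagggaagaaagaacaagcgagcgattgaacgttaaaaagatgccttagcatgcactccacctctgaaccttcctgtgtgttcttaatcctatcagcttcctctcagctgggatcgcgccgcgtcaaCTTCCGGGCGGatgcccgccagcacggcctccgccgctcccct
BRD9: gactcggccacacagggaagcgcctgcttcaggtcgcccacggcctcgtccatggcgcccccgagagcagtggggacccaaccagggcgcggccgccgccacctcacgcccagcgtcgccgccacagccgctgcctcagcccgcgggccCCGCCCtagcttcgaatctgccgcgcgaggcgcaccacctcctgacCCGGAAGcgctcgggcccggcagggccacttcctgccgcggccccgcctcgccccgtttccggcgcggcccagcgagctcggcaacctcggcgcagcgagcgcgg
PHF13: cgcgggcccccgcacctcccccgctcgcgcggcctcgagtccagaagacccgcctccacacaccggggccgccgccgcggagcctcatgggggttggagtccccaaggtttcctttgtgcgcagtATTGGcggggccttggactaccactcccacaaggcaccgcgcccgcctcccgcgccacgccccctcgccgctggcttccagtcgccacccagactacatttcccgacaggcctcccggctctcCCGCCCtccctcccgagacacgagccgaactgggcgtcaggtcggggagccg
Counted from the start, the increased region of BRD9 covers 226 of the 300 bases of its window, and those of the others cover all 300. The SMARCAD1 window belongs to a start 257 bases inside the 5′ end of the gene, and the other windows to the 5′ end itself. The KMT2C window is 88.7% G or C, with 56 CpG and 15 matches to GGGCGG, the core bound by SP and KLF factors. The KMT2E-AS1 window holds 1 match to ATGGCGG, part of the YY1 motif, and no match to GGGCGG. In the SMARCAD1 window, which is 52.7% G or C, a match to GGGCGG and a match to CCGGAAG, the core of ETS factors, overlap. BRD9 has 1 match to each of these, apart from each other, and PHF13 has 1 match to GGGCGG and 1 to CCAAT, the NFY motif. A match describes the letters only and is not evidence of binding.

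The shares that follow again use the most upstream window of each gene, which need not be at the increased start. Over the 49 regulators with an increased promoter region and a window, the median was 69.3% G or C and 30 CpG. It was 65.7% and 28 for the 3001 genes of any kind with such a region and 62.7% and 22 for all 15842 windows. GGGCGG was found in 75.5% of the 49, in 71.0% of the 3001 and in 58.3% of all windows. CCGGAAG was found in 20.4%, 22.5% and 14.2%, and CCAAT in 22.4%, 35.9% and 36.4%. TGTGGT, the core of RUNX factors, was in 10.2%, 9.43% and 11.0%. TATAAA, the TATA box, and TGACGTCA, the cAMP response element, were in none of the 49, in 5.80% and 3.37% of the 3001 and in 9.75% and 2.56% of all windows. CACGTG, the E-box, was in 14.3%, 11.4% and 8.82%, GCGCATGC, part of the NRF1 motif, in 10.2%, 6.60% and 4.28%, and ATGGCGG in 6.12%, 11.9% and 7.57%. The 66 windows of regulators with no increased promoter region had medians of 66.5% G or C and 28 CpG, and 65.2% of them held GGGCGG, so high G, C and CpG content was shared by regulators with and without an increase.

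Genes on the opposite strand were counted where they start from 1 kb upstream to 250 bases downstream of any start with a window. Of these 49 regulators, 15 (30.6%) have such a gene, beside 31.0% of all genes with an increased promoter region and 23.2% of all protein-coding genes. The partner is protein-coding for 6 of them: TRIP13 for BRD9, NFKBIB for SIRT2, PSMD13 for SIRT3, ANKRD24 for SIRT6, TPMT for KDM1B and CCDC77 for KDM5A. These 6 are 12.2% of the 49, beside 15% of all genes with an increased promoter region and 12.6% of all protein-coding genes. Accessibility at such a start can be shared by both genes, but the start compared need not be the one with the increased region.

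Lysine methyltransferases place methyl groups on lysines, among them those of histones. Of 23 in RefSeq, 10 (43.5%) had an increased region, each at the promoter, beside 25.2% and 17.5% of all protein-coding genes. Their folds ran from 0.61 to 1.52 on the log2 scale, with a median of 0.91. KMT2C, which methylates lysine 4 of histone H3 at enhancers, had the largest log2 fold in the authors' deposited table: reads over its start rose from a mean of 7.82 in the control to 30.8 in the knockdown (chromosome 7, 152132788 to 152133496, log2 fold 1.52, FDR 0.000175). RefSeq lists pseudogenes of KMT2C, and how the authors treated reads that fit several places is not given in the sources used here. KMT5B, a methyltransferase of lysine 20 on histone H4, rose from 10.4 to 28.8 (log2 fold 1.16, FDR 0.00237), and KMT2B, a paralogue of KMT2A, from 25.4 to 62.9 (log2 fold 1.11, FDR 0.000515). KMT2A, the gene rearranged in many acute leukaemias, had more reads than these in the control and the smallest log2 fold of the group, with a rise from 45.7 to 72.5 (log2 fold 0.61, FDR 0.0283). The genes for enzymes of H3 lysine 36 had increases between these, with log2 folds of 0.91 at SETD2, 0.93 at NSD2 and 0.75 at NSD3. KMT2D, KMT2E, NSD1, SETD1A, SETD1B and SETDB1 are among the 13 with no listed region. The start of KMT2E lies beside that of KMT2E-AS1, to which the annotation gives the increased regions there.

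Lysine demethylases remove these marks, and 8 of 19 (42.1%) had an increased region, all with one at the promoter. Among all protein-coding genes the shares were 25.2% and 17.5%. KDM6B, which removes methyl groups from H3 lysine 27, the mark PRC2 places, had the largest log2 folds. Its abutting regions on chromosome 17, 7745848 to 7746248 and 7746249 to 7746649, lie 2.61 and 3.01 kb inside the gene, so only the first counts as promoter, and neither covers the start. Reads rose from 2.54 to 12.2 in the first (log2 fold 1.30, FDR 0.00560) and from 5.35 to 15.7 in the second (log2 fold 1.03, FDR 0.0213), both from low means. KDM3A, a demethylase of H3 lysine 9, had a promoter that was already open in the control at 59.6 reads and the smallest log2 fold of all 100 regions, with a rise to 93.6 (log2 fold 0.59, FDR 0.0283). KDM5A and KDM5C, which act on H3 lysine 4, had log2 folds of 0.87 and 0.85 at their starts. No increased region was listed for KDM6A, a paralogue of KDM6B, or for KDM1A.

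Acetyltransferases and deacetylases add and remove acetyl groups. An increased region was listed for 2 of 8 KAT genes (25%), KAT2B and KAT6A, both at the promoter, and for 12 of 18 HDAC and SIRT genes (66.7%), 8 of them (44.4%) at the promoter, beside 25.2% and 17.5% of all protein-coding genes. The KAT share with any region is thus about that of all genes. The difference between the families was not tested. KAT6A, a gene fused to partners in some acute myeloid leukaemias, rose at its promoter on chromosome 8 from 26.1 to 59.6 reads (log2 fold 1.04, FDR 0.000567). KAT2B, also known as PCAF, had 3 regions, and the intronic one 20.9 kb inside the gene changed more, from 2.82 to 13.7 reads (log2 fold 1.37, FDR 0.00318), than the promoter, from 21.3 to 37.3 (log2 fold 0.70, FDR 0.0363). The same order was seen at HDAC2, a class I deacetylase, where a region 9.73 kb before the start, in an intron of a transcript that the annotation ties to no gene, rose from 2.76 to 12.1 reads (log2 fold 1.23, FDR 0.00832) and the promoter from 45.8 to 76.6 (log2 fold 0.67, FDR 0.00996). In both genes the region with the larger fold had few reads in the control.

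HDAC9, a class IIa deacetylase on chromosome 7, had 8 increased regions spread over 563 kb, more than any other regulator. Annotated starts of the gene carry 2 of them, at 18535131 to 18535531 with 6.05 reads in the control and 20.5 in the knockdown (log2 fold 1.24, FDR 0.00309), and at 18629869 to 18630269 with 5.47 and 14.7 (log2 fold 0.97, FDR 0.0254). The other 6 lie in its introns or exons, with log2 folds from 0.92 to 1.16. In 1 of these, with a log2 fold of 1.16, the control mean stands at 1 read, the lowest value the deposited log2 means show, so the ratio of its reads, 7.87, rests on that floor. All 8 had fewer than 10 reads in the control, so accessibility there was low before any increase. Of the sirtuins, which use NAD as a cofactor, SIRT1, SIRT2, SIRT3 and SIRT6 had promoter regions, with the smallest log2 fold at SIRT2 (0.63, from 57.2 to 92.7 reads, FDR 0.0161). SIRT4 had regions only 8.93 and 10.1 kb upstream.

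Enzymes of DNA methylation were represented by 3 of 7 genes (42.9%), all with a promoter region, beside 25.2% and 17.5% of all protein-coding genes. TET2, which oxidises methylcytosine and is often mutated in myeloid malignancies, had the largest log2 fold of the 100 regions in the authors' deposited table. By the ratio of mean reads it came eighth, at 4.17, behind regions with under 4 reads in the control at HDAC9, KDM7A-DT, KAT2B, KDM6B, HDAC2 and PHF13. Reads over its start on chromosome 4, 106067727 to 106068127, rose from 6.81 to 28.4 (log2 fold 1.53, FDR 0.000179). A further 3 regions for which TET2 is the nearest gene lie 84.1 to 285 kb upstream, with log2 folds of 0.84, 0.84 and 0.89. TET3 had neighbouring regions 338 bp and 1.30 kb before its start, which rose from 7.02 to 21.4 (log2 fold 1.15, FDR 0.00505) and from 5.53 to 19 reads (log2 fold 1.23, FDR 0.00448). DNMT1, which copies methylation to new DNA strands, rose 491 bp inside the gene from 8.60 to 21.0 reads (log2 fold 0.88, FDR 0.0349). DNMT3A, DNMT3B, DNMT3L and TET1 had no listed region.

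SMARC and ARID genes include ATPases and subunits of SWI/SNF and related complexes. They also include genes for other proteins, such as the DNA-binding ARID3, ARID4 and ARID5, which are no SWI/SNF subunits. Of 23, 12 (52.2%) had an increased region, ARID3B, ARID4B and ARID5B among them, 9 (39.1%) at the promoter. Among all protein-coding genes the shares were 25.2% and 17.5%. SMARCAD1, a remodeller ATPase, had the largest log2 fold in the authors' deposited table, with a rise from 14.9 to 40.9 reads over its start (chromosome 4, 95128725 to 95129125, log2 fold 1.21, FDR 0.000567). ARID2, a subunit of PBAF, rose 721 bp before its start from 33.3 to 80.8 reads (log2 fold 1.14), with the smallest FDR of the protein-coding regulators, 3.91e-05. The catalytic subunits of SWI/SNF both had increased promoters, SMARCA4 with a log2 fold of 0.83 and SMARCA2 with one of 0.64 (from 31.3 to 52.5 reads, FDR 0.0424), the smallest at a promoter here. ARID1B, a BAF subunit, had 4 regions over 546 kb, at the promoter (12.4 to 30.1 reads, log2 fold 0.99, FDR 0.00926), 85.9 and 119 kb downstream of an annotated start and 269 kb upstream. Its paralogue ARID1A and the core subunit SMARCB1 had no listed region.

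Of 11 genes with a CHD symbol, most of which encode chromodomain helicases, 5 (45.5%) had an increased region, at the promoter in 3 (27.3%). Among all protein-coding genes the shares were 25.2% and 17.5%. CHD7, the gene mutated in CHARGE syndrome, rose over its start on chromosome 8 from 14.5 to 40.1 reads (log2 fold 1.22, FDR 0.000281), and CHD8 from 28.8 to 51.2 (log2 fold 0.73, FDR 0.0147). For CHD4, the ATPase of NuRD, the only region lay 6.36 kb upstream (log2 fold 0.83). Of 9 genes with a BRD symbol, which apart from BRD3OS encode bromodomain proteins that read acetylated lysines, 2 (22.2%) had a region, both at the promoter, a share near that of all genes: BRD9, a subunit of noncanonical BAF, rose from 31.2 to 65.2 reads (log2 fold 0.93, FDR 0.00118), and BRD3, a BET protein, had neighbouring regions with log2 folds of 0.93 and 0.86. ASXL1 and ASXL2, cofactors of the deubiquitinase BAP1, had low log2 folds of 0.59 (33.6 to 53.8 reads, FDR 0.0469) and 0.69 (45.8 to 78.0 reads, FDR 0.00930).

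PHF genes encode PHD finger proteins, many of which read histone methylation. Of 18, 11 (61.1%) had an increased region, 9 (50%) at the promoter, beside 25.2% and 17.5% of all protein-coding genes. PHF13 had neighbouring regions 35 bp apart on chromosome 1. The one over the start was the more open and rose from 35.6 to 71.1 reads (log2 fold 0.86, FDR 0.00551), and the next, 144 bp inside the gene, from 3.22 to 14.1 (log2 fold 1.32, FDR 0.00384). At PHF14 on chromosome 7 the region over the start rose from 24.0 to 44.9 (log2 fold 0.77, FDR 0.0137), and the region 428 bp before it from 10.4 to 30.9 (log2 fold 1.25, FDR 0.000967). In both genes the larger fold lay beside the start and not over it. PHF12, a SIN3 partner, had the smallest promoter log2 fold of the group (0.65, from 44.7 to 74.0 reads, FDR 0.0185). The region assigned to PHF3 lies 258 kb away, in an intron of EYS, and PHF6 had an intronic region only (log2 fold 0.98).

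The noncoding transcripts had some of the strongest signals. KMT2E-AS1 starts next to KMT2E and runs in the opposite direction, and 3 regions over and just inside it on chromosome 7, within 1.61 kb, were increased. The middle one rose most in fold (9.56 to 35.4 reads, log2 fold 1.50, FDR 4.08e-05). The one 891 bp inside had the smallest FDR of the 100 regions in the authors' deposited table, 2.07e-07, with 35.1 and 102 reads and a log2 fold of 1.37, and it ranked 40 by p-value among all listed regions. KDM7A-DT, beside KDM7A, rose over its start from 15.6 to 46.9 reads (log2 fold 1.31, FDR 0.000149). Its other region, intergenic and 19.3 kb downstream of that start, was weaker, with 1.32 and 7.12 reads (log2 fold 0.97, FDR 0.0389), from a control mean near the floor. KMT2E and KDM7A themselves have no listed region, and the annotation gives each region to 1 nearest gene only.

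Of the 69 symbols, 51 had 1 region, 12 had 2, 3 had 3 (KAT2B, KMT2E-AS1 and PHF14), 2 had 4 (ARID1B and TET2), and HDAC9 had 8. Regions of 1 gene can be parts of 1 open stretch: 10 of the 31 neighbouring pairs lay less than 1000 bp apart, in 9 symbols.

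**Figure D4:**
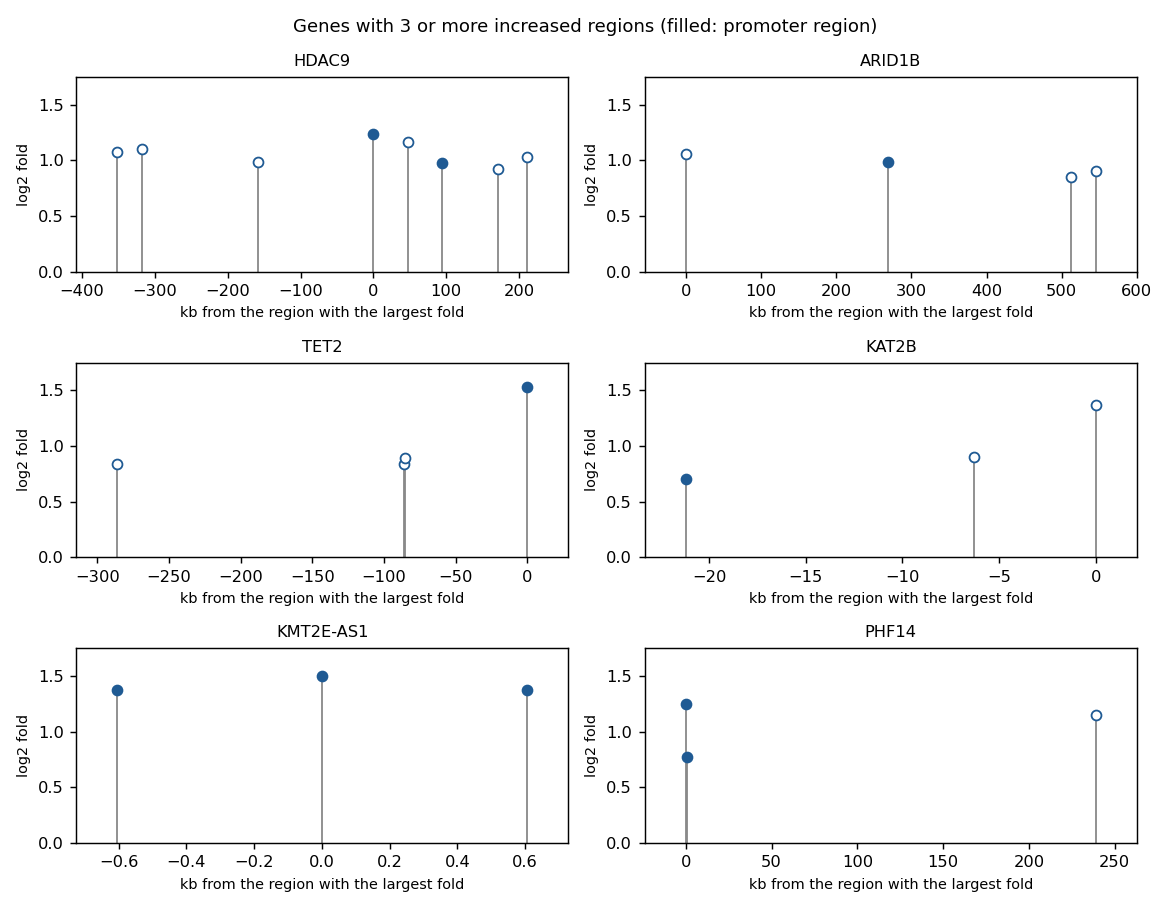
The authors' log2 fold of each region (vertical axis) against its place along the chromosome (horizontal axis, kb from the region with the largest fold, so that the scale differs between panels) for the genes with 3 or more increased regions. The regions of HDAC9 spread over 563 kb and those of KMT2E-AS1 over 1.61 kb.

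Chromosome 7 held 17% of the regulators' regions and 12.1% of all increased regions. The median log2 fold was 1.15 for the 17 on chromosome 7 and 0.88 for the 83 elsewhere, beside 1.05 and 0.96 for all increased regions. KMT2C, HDAC9, PHF14 and both noncoding transcripts lie there. On this chromosome 51.5% of all protein-coding genes had an increased region, and 3 of 6 regulators (50%) did, a share like that of its other genes. The part of this in the increases of these genes was not tested. Without it, 64 of 133 regulators (48.1%) had an increased region, beside 23.9% of all protein-coding genes.

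Other genes of the same complexes that the naming rule does not match were counted in 7 lists of 155 genes, of which 65 (41.9%) had an increased region, 56 (36.1%) at the promoter and 0 a decreased one, beside 25.2%, 17.5% and 0.818% of all protein-coding genes. The share was 4 of 15 (26.7%) for other SWI/SNF subunits, near that of all genes. BCL11A (log2 fold 1.01, in an intron) and BCL7B on chromosome 7 (0.94) led there. For NuRD it was 4 of 10, led by the histone binder RBBP7 (1.14) and MBD3 (0.98). It was 11 of 24 for CoREST, SIN3 and NCoR corepressors, led by RCOR3 (19.5 to 64.3 reads, log2 fold 1.50) and ZMYM2 (1.08). It was 5 of 13 for COMPASS subunits, led by PAXIP1 on chromosome 7 (in an intron, 1.94 to 9.85 reads, log2 fold 1.22) and HCFC1 (1.08). For other acetyltransferases and their subunits it was 17 of 43, led by ING3 on chromosome 7 (20 to 74.5 reads, log2 fold 1.69) and MORF4L2 (1.28). ISWI, INO80 and SRCAP remodellers had 14 of 28, led by INO80D (6.48 to 27.5 reads, log2 fold 1.62) and CECR2 (1.33). Other lysine and arginine methyltransferases had 10 of 22, led by PRMT3 (1.11) and by a region 305 kb from PRDM9 (1.24). The median log2 folds of the lists ran from 0.83 to 0.98, around the 0.91 of the regulators and the 0.97 of all increased regions.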

How the data were processed

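Regions, log2 group means, log2 folds, p-values and FDR (q-values) were computed by the authors and deposited as lists of increased and decreased regions, per the file headers. Per the submitters' processing notes, the tools included MACS2 2.2.6, deepTools 1.5.12, Picard 2.2.4 and Bowtie2 2.4.1. Not given in the sources used here is which tool made the folds, how reads were normalised or whether they were shifted for the transposase. The knockdown column was told from the control column by its name and by its weight of 0.429 in the overall mean, that of 3 libraries beside 4. The notes name hg38, but gene starts equalled GRCh38 in 0.137% of 8787 matched regions, so coordinates are read as hg19. With 52675 regions tested, 8925 pass the FDR, and 110 of these are not in the lists and were not analysed here.

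Reads are 2 to the power of the deposited log2 means. Members were matched to RefSeq (GRCh38.p14) by gene identifier, and genes, not regions, were counted against all protein-coding genes. Named genes are the 15 with the largest log2 fold, those with 3 or more regions, the largest and smallest promoter fold of each role group and the leading pair of each partner list; genes outside this rule were named after their values were seen. Promoter windows printed also needed a deposited gene length within 50 bp of RefSeq, a condition added later. Members and lists were chosen with earlier results of these data known. No test between groups could be fitted to group means. Software was matplotlib 3.10.9, scipy 1.17.1, numpy 2.4.6 and pandas 2.3.3 under Python 3.11.15. Recovery of the number tested was tested on simulated data.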

Additional observations from a re-analysis of the deposited data

How the results depend on the processing

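No paired analysis was possible because the deposited lists hold group means and no value per library, and for the same reason no replicate was left out. At an FDR of at most 0.01, 46 member regions (46%, beside 45.9% of all increased regions) and 37 member genes (26.6%, beside 13.9% of all protein-coding genes) remained on the list, and 84.8% of those regions were at promoters, beside 59.5% of all. At a log2 fold of at least 1, 33 regions (33%, beside 43.4%) and 22 genes (15.8%, beside 11.3%) did. Taken as the difference of the deposited log2 group means, the median was 1.19, beside 1.31 for all increased regions. The other 12 values stayed within 1.5 times for counts and within the 95% interval of the main value for the median (0.86 to 0.97) and the promoter share. Both intervals take regions as independent draws, which they are not, and serve as a limit only. These 12 values came from limits of 10 kb or 10 reads, from leaving out chromosome 7 or noncoding symbols, from promoter regions alone, from a 1 kb promoter and, for the promoter share, from a log2 fold of at least 1 (60.6%, beside 35.6%). Within 10 kb the regions fell to 75 of 100, beside 4895 of all 8615 increased regions. Means of few reads limit the folds: 19% of the regions average under 10 reads, beside 26.9% of all increased regions.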

Other observations

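Further lists of chromatin genes, chosen after the data were seen, gave counts of the same kind, with no test. Of 20 genes for cohesin, condensin and CTCF, which fold chromosomes into loops, 12 (60%) had an increased region and 10 (50%) an increased promoter, beside 25.2% and 17.5% of all protein-coding genes. In the authors' deposited table the cohesin loader NIPBL rose from 26.7 to 75.7 reads (log2 fold 1.28) and the condensin subunit NCAPD3 from 23.8 to 66.5 (log2 fold 1.28). Of 20 histone chaperones, 7 (35%) had an increased region, all at the promoter, with ASF1A (log2 fold 1.24) and NPM1 (1.13) the highest. Of 12 genes for proteins around H3 lysine 9 methylation, 5 (41.7%) did, led by CBX3 on chromosome 7 (log2 fold 1.43) and UHRF2 (0.98). No gene of these lists had a decreased region, beside 0.818% of all protein-coding genes, a share too small to be read in lists of this size.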
